A study of Mus musculus with 7 samples.

Results

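The 6 genes described here, Cys1, Fam214a, Trp53i11, Zswim4, Dennd4a and Plek, were measured in RNA of mature adipocyte preparations and lie outside the usual fat, cytokine and chemokine pathways. They were picked out of 57010 genes in the count table, of which 17039 had enough counts to be tested, because every Adipoq-F2-KO library lay on the same side of every FFA2 fl/fl library in CPM, the counts of a gene scaled to the total of its library. The difference between genotypes was therefore the basis of the choice. For these 6 genes it is given below as a description, without a test.

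Adipocytes came from male littermates on one chow (Teklad LM-485), killed at 20 weeks of age according to the sample labels. All mice carried the floxed FFA2 allele. The 3 FFA2 fl/fl mice had no Cre and served as floxed controls, and the 4 Adipoq-F2-KO mice also carried Cre under the adiponectin promoter, which removes FFA2, the short-chain fatty acid receptor encoded by Ffar2, in adipocytes and leaves it in cells that do not use that promoter. Perigonadal fat was digested with collagenase, and the isolated mature adipocytes gave poly-A RNA for stranded paired-end libraries. Total counts lay between 30478997 and 39992605 per library. Ffar2 itself fell from 34.5 ± 2.77 normalized CPM (SD, n = 3) to 1.69 ± 0.634 (SD, n = 4), and all 7 libraries fitted their labels in this respect. Adipocyte markers were abundant in every library, with a sum over 10 genes such as Adipoq, Plin1 and Cfd of between 34486 and 50014 normalized CPM, while marker sums of macrophages (302 to 553) and endothelial cells (829 to 1867) were far lower. In RNA from a bulk preparation, a lower level in each cell and a smaller share of the cells that make the transcript cannot be told apart.

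The 6 proteins have little in common. Cystin 1, the product of Cys1, is a myristoylated protein of the primary cilium membrane that is lost in the congenital polycystic kidney (cpk) mouse. Fam214a, now named Atosa, is the mammalian relative of fruit fly Atossa, a nuclear protein that raises the mitochondrial capacity of migrating macrophages. Trp53i11 was described as a gene induced by p53. Zswim4 belongs to the SWIM zinc finger family, some members of which bring substrates to cullin-RING ubiquitin ligases. Dennd4a carries a DENN domain and acts as an exchange factor that activates Rab10, the small GTPase that moves glucose transporter vesicles to the surface of adipocytes. Plek encodes pleckstrin, which carries a pair of PH domains and is a major protein kinase C substrate of platelets and leukocytes.

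Promoter sequence is shown for 4 of the genes, both of the lower ones and the higher ones with the most motif matches (Zswim4) and the lowest G and C content (Plek), because these upstream regions differ in base composition and in the motifs they hold. Each line gives the 250 bases before a RefSeq transcript start on GRCm38.p6, read 5′ to 3′ on the strand of the gene. Cys1 lies at chr12:24681796-24682045 (minus strand), Fam214a at chr9:74952630-74952879 (plus strand, the first of its 3 windows), Zswim4 at chr8:84237043-84237292 (minus strand) and Plek at chr11:17008719-17008968 (minus strand). Capitals mark motifs found on either strand, except the cyclic AMP response core TGACG, which is left in lower case in the Fam214a and Plek windows. In the Fam214a window these are CCAAT, the PU.1 motif GAGGAAGT and the E-box CACGTG. In the Zswim4 window they are CCAAT and the SP1 motif GGGCGG, each with its reverse complement, and in the Plek window the nuclear receptor core AGGTCA.
Cys1: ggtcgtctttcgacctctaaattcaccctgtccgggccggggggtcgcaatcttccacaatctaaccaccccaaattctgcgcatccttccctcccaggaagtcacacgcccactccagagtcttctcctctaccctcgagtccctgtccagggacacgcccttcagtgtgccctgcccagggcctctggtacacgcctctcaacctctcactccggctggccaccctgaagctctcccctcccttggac
Fam214a: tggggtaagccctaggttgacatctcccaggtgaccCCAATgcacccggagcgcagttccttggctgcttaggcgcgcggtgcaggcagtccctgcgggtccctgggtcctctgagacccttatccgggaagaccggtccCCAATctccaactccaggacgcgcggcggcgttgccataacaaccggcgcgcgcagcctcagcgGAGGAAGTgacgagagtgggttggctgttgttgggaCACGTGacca
Zswim4: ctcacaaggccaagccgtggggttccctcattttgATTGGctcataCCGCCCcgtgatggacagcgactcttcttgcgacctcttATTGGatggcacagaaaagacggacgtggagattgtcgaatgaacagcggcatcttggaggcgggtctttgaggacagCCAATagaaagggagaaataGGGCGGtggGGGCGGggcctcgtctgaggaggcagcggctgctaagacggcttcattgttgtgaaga
Plek: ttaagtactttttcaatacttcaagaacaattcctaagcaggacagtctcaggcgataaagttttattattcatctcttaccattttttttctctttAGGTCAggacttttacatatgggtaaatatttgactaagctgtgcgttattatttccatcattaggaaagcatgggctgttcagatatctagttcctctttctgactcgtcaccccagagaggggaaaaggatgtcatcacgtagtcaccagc

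The Plek window held 38% G and C with 4 CpG dinucleotides, below the 38.8% that marks the 10th percentile of all 32851 RefSeq windows, whose medians were 52.4% and 6 CpG. The first Fam214a window held 64.4% G and C with 20 CpG, and the Cys1 window 61.2% with 11. Zswim4 held 56% and 15 CpG, Dennd4a held 48.4% and 6 CpG, and Trp53i11 71.2% and 22 CpG. Each motif was searched on both strands. CACGTG was present in all 3 Fam214a windows and in 6.02% of all windows, and in no window of the other members. Fam214a windows 1 and 2 (the latter at chr9:74952803-74953052) overlap, and their CACGTG matches are the same site. In the first Fam214a window it ended 5 bases before the transcript start, and GAGGAAGT, which 2.44% of windows hold, lay 46 to 39 bases before it and shared its last base with the cyclic AMP response core. The CCAAT box occurred 3 times in the Zswim4 window, and in 33.8% of all windows. GGGCGG also occurred 3 times there and was found in Trp53i11 and Dennd4a, and in 32.7% of all windows. AGGTCA was present in Plek and Dennd4a, and in 14.0% of windows. TGACG was present in Fam214a and Plek and in 17.8% of windows, the C/EBP pattern TTGCNNAA in the third Fam214a window and in 9.56%, and the ETS core CGGAAG in Trp53i11 and in 13.6%. Matches were 0 in all 6 genes for TGACGTCA (CRE, 1.55% of windows), TGANTCA (AP-1, 6.75%), GGGNNTTCC (NF-kB, 4.98%), TATAAA (12.4%) and ACATGT (p53 core, 4.58%). The Cys1 window held none of the motifs searched. These matches describe letters in a window and say nothing of binding.

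Cys1 showed the greatest separation of the 6 genes, with 0.339 of the control level left in the Adipoq-F2-KO libraries by the fitted fold change. It was at 16.4, 16.2 and 19.2 normalized CPM in FFA2 fl/fl libraries 1 to 3 and at 5.27, 7.14, 6.69 and 4.21 in Adipoq-F2-KO libraries 1 to 4. The genotypes were 9.02 CPM apart at their nearest libraries, and library 4 was the lowest of the knockouts. The means were 17.2 ± 1.67 (SD, n = 3) and 5.83 ± 1.34 (SD, n = 4), and the fitted log2 fold change was -1.56 (SE 0.18). The raw counts behind these values ran from 613 to 654 in controls and from 124 to 242 in knockouts. In the deposited table the gene spans chr12:24715832-24731812 on the minus strand.

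Fam214a was the most abundant of the 6 genes in the control libraries and was lower in every knockout library. It was at 309.9, 243 and 251 normalized CPM in FFA2 fl/fl libraries 1 to 3. It was at 133, 141 and 141 in Adipoq-F2-KO libraries 1 to 3, which lay close together, and at 77.9 in library 4, which stood apart below them. The means were 268 ± 36.4 (SD, n = 3) and 123 ± 30.3 (SD, n = 4), and the log2 fold change was -1.13 (SE 0.18). Per kilobase of exon its control level exceeded that of 93.9% of all tested genes and its knockout level that of 87.3%. The gene lies at chr9:74860166-74939750 on the plus strand in the deposited coordinates.

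Trp53i11 was about 2-fold higher in the knockout libraries. Its level was 35.6, 43.4 and 38.2 normalized CPM in FFA2 fl/fl libraries 1 to 3 and 77.3, 70.7, 70.7 and 96.3 in Adipoq-F2-KO libraries 1 to 4. The lowest knockout library was 1.63 times the highest control, and library 4 was again the farthest from the controls. The means were 39.1 ± 3.96 (SD, n = 3) and 78.8 ± 12.1 (SD, n = 4), and the log2 fold change was 1.01 (SE 0.13). The gene spans chr2:93017893-93032104 on the plus strand.

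Zswim4 had the least scatter of the 6 genes. It was at 18.7, 20.8 and 22.2 normalized CPM in FFA2 fl/fl libraries 1 to 3 and at 35.5, 42.5, 32.9 and 39.8 in Adipoq-F2-KO libraries 1 to 4. No control library came within 10.7 CPM of a knockout library, and the highest knockout was library 2. The means were 20.6 ± 1.80 (SD, n = 3) and 37.7 ± 4.26 (SD, n = 4), giving a log2 fold change of 0.87 (SE 0.12). The gene spans chr8:84937307-84963684 on the minus strand.

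Dennd4a changed by the same log2 amount as Zswim4 from a higher count. It was at 38.3, 47.3 and 43.7 normalized CPM in FFA2 fl/fl libraries 1 to 3 and at 69.5, 77.2, 74.4 and 94.1 in Adipoq-F2-KO libraries 1 to 4. Knockout library 4 was the highest, and the nearest libraries of both genotypes differed 1.47-fold, the narrowest gap among the 6 genes. The means were 43.1 ± 4.53 (SD, n = 3) and 78.8 ± 10.7 (SD, n = 4), and the log2 fold change was 0.87 (SE 0.12). Since its exons add up to 16643 bases, the longest of the 6, its level per kilobase in the controls was the lowest of them. It spans chr9:64718622-64826949 on the plus strand.

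Plek had the lowest normalized CPM of the 6 genes in the controls and the largest rise by fold change, though not in CPM. It was at 13.7, 15.4 and 13.3 normalized CPM in FFA2 fl/fl libraries 1 to 3 and at 25.01, 26.4, 35.1 and 36.2 in Adipoq-F2-KO libraries 1 to 4. Knockout libraries 1 and 2 lay near each other, as did libraries 3 and 4 above them, and none overlapped the controls. The means were 14.2 ± 1.11 (SD, n = 3) and 30.7 ± 5.77 (SD, n = 4), and the fit gave a log2 fold change of 1.11 (SE 0.15). The gene spans chr11:16921206-17002381 on the minus strand.

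**Figure D1:**
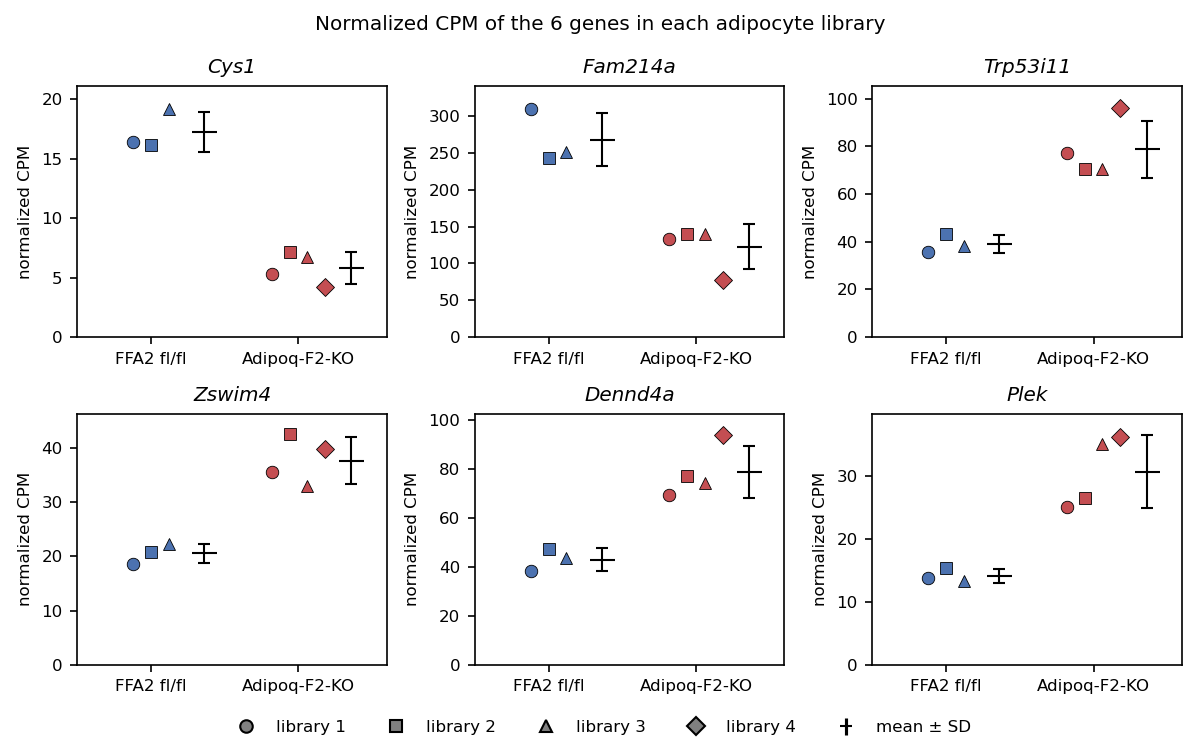
Normalized CPM of Cys1, Fam214a, Trp53i11, Zswim4, Dennd4a and Plek (vertical axes from 0) in 3 FFA2 fl/fl (blue) and 4 Adipoq-F2-KO (red) libraries, with marker shapes for the library number and bars for mean ± SD. Cys1 and Fam214a are lower and the other 4 genes higher in every Adipoq-F2-KO library, and library 4 (diamonds) is at the far end for 5 of the 6 genes, Zswim4 being the exception.

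Separation without overlap was the rule that chose these genes, and it was common. In normalized CPM the genotypes did not overlap for 2996 of the 17039 tested genes (17.6%), and in CPM without TMM scaling for 3035 (17.8%). At the edge of the rule, Rrs1 was at 28.35 in its highest control and 28.36 in its lowest knockout library, just inside, and Ccdc85c, just outside, was at 13.43 in both its lowest control and its highest knockout library. Among the 13508 tested genes with a mean of at least 1 normalized CPM, the distance between the nearest libraries on the log2 scale ranked Cys1 at 4, Fam214a at 22, Trp53i11 at 42, Plek at 46, Zswim4 at 76 and Dennd4a at 80. By size of log2 fold change the same genes ranked lower, from 101 for Cys1 to 594 for Dennd4a. An adjusted p under 0.05 in edgeR's quasi-likelihood test was reached by 1.02% of tested genes, 136 higher and 37 lower, and by all 6 of the selected genes, from which nothing is read since the same contrast chose them. Without FFA2 fl/fl library 1 or without library 3 that count was 0 of the 6. In these fits only 1 of 17843 and 5 of 17970 tested genes passed, so the loss was not particular to the 6. The count was 4 of the 6 without FFA2 fl/fl library 2, where 41 tested genes passed. It was 3 without Adipoq-F2-KO library 2 (11 tested genes) and 5 without library 3 (20). All 6 passed without library 1 (178 tested genes) or 4 (166). Over these fits the log2 fold changes stayed between -1.67 and -1.44 for Cys1 and between -1.20 and -0.96 for Fam214a. The 4 higher genes stayed between 0.77 and 1.20. The sign of each was fixed in advance by the choice of genes without overlap.

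The scatter within a genotype was not evenly spread over the libraries. The standard deviation of log2 CPM within genotypes was largest for Fam214a (0.34) and Cys1 (0.28), and smallest for Zswim4 (0.15). Adipoq-F2-KO library 4 lay 0.62 below the mean of its genotype for Fam214a and 0.43 below for Cys1 on the log2 scale. The same library lay 0.30 above it for Trp53i11, 0.27 for Dennd4a, 0.26 for Plek and 0.08 for Zswim4. It was also the library with the lowest adipocyte marker sum (34486 normalized CPM) and the highest macrophage (553) and endothelial (1867) sums. The part of these sums in the gene values was not tested.

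**Figure D2:**
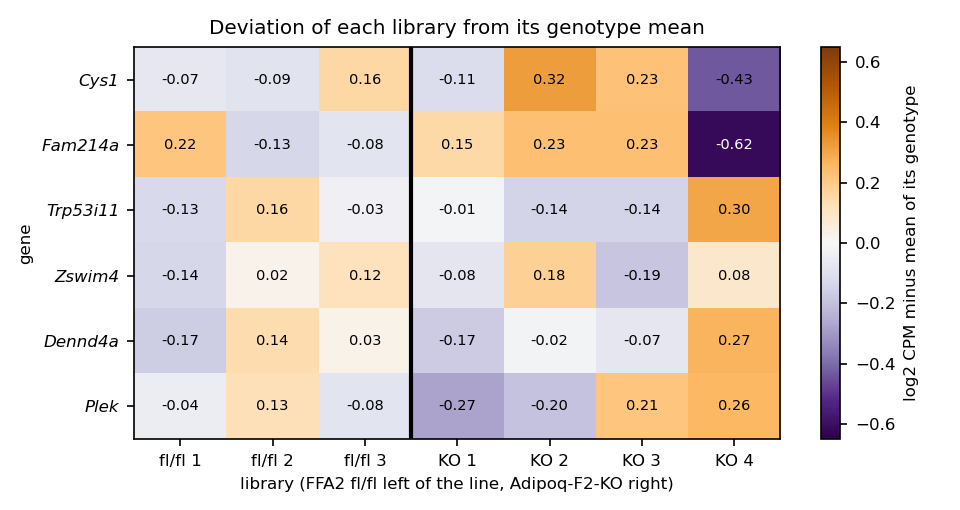
Log2 CPM of each gene (rows) in each library (columns) minus the mean of its genotype, coloured and printed, with FFA2 fl/fl left of the line and Adipoq-F2-KO right of it. Library KO 4 has the lowest Cys1 (-0.43) and Fam214a (-0.62) and the highest Trp53i11 (0.30), Dennd4a (0.27) and Plek (0.26) of its genotype.

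Levels of different genes can be set side by side only per exon length, and on that scale, normalized CPM per kilobase of exon, the order of the 6 genes differed between genotypes. In controls Fam214a stood first at 40.4 ± 5.49, followed by Trp53i11 at 10.6 ± 1.07, Cys1 at 5.84 ± 0.567, Zswim4 at 4.45 ± 0.388, Plek at 3.16 ± 0.248 and Dennd4a at 2.59 ± 0.272 (SD, n = 3), and no neighbours in this order overlapped between libraries. In Adipoq-F2-KO libraries Trp53i11 at 21.3 ± 3.28 and Fam214a at 18.5 ± 4.56 overlapped at the top. Zswim4 at 8.15 ± 0.922 overlapped with Plek at 6.84 ± 1.29, and Plek with Dennd4a at 4.73 ± 0.643, whereas Cys1 at 1.97 ± 0.455 stood below all of them (SD, n = 4).

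The macrophage markers moved with the genotype too, so their values are given beside the genes. All 10 macrophage markers were higher in the Adipoq-F2-KO libraries, 2 of them past the test (Cd68, a lysosomal glycoprotein, and Lyz2, lysozyme), and their sum ranged from 302 to 373 normalized CPM in controls and from 469 to 553 in knockouts, without overlap. Lyz2 missed the edgeR threshold without FFA2 fl/fl library 1 (adjusted p = 0.201) or 3 (adjusted p = 0.155) and without Adipoq-F2-KO library 2 (adjusted p = 0.064) or 3 (adjusted p = 0.069). All 10 adipocyte markers were lower, with 0 past the test, and their sums ranged from 44463 to 50014 in controls and from 34486 to 45429 in knockouts. The 6 endothelial markers were higher with 0 past the test, from 829 to 1099 and from 1163 to 1867. Divided by the macrophage sum of the same library, Plek stood at 3.75% to 4.54% of that sum in controls and at 5.23% to 7.03% in knockouts, and the log2 ratio of the means was 0.56. For the other higher genes the log2 ratio per macrophage marker was 0.46 for Trp53i11, 0.33 for Zswim4 and 0.33 for Dennd4a. Per endothelial sum Zswim4 overlapped between genotypes, from 1.89% to 2.38% in controls and from 2.13% to 3.66% in knockouts. Divided by the adipocyte sum, the log2 ratio was -1.35 for Cys1 and -0.93 for Fam214a, and divided by the macrophage sum it was -2.10 and -1.67. Per adipocyte sum the higher genes stood at 1.27 for Trp53i11, 1.12 for Zswim4, 1.13 for Dennd4a and 1.36 for Plek. Since the genes were chosen for lack of overlap, these ratios are a description, and the part of other cell types in the 6 genes was not tested. The 6 platelet markers summed to between 5.92 and 8.58 normalized CPM in controls and between 8.52 and 14.1 in knockouts, and the 4 of them that were tested were higher with 0 past the test (median log2 fold change 0.67). Neutrophil markers summed to at most 3.25 in any library.

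**Figure D3:**
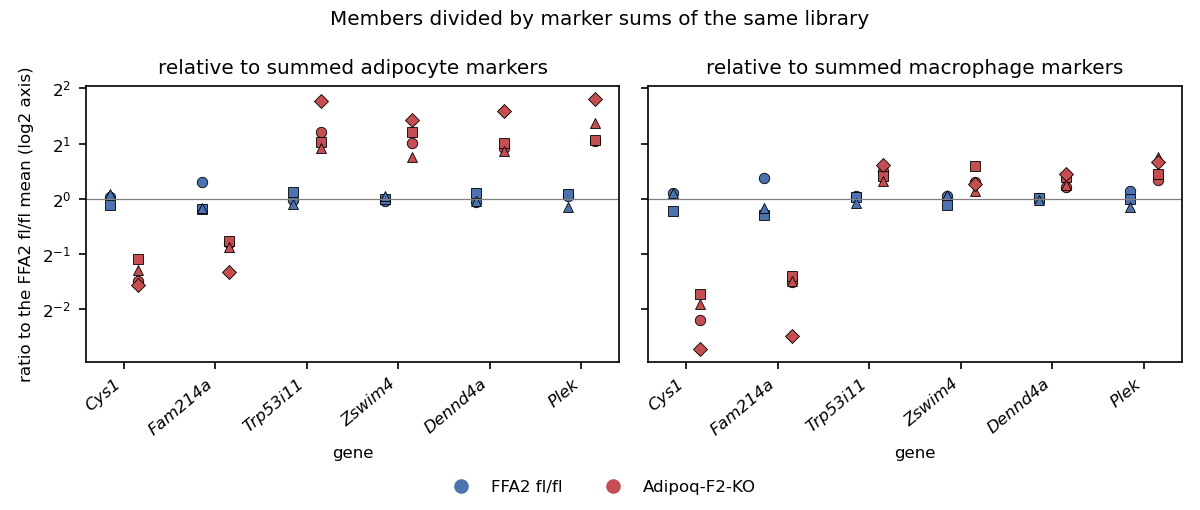
Each gene's normalized CPM divided by the summed adipocyte markers (left) or macrophage markers (right) of the same library, relative to the FFA2 fl/fl mean (log2 axis, 1 is that mean), with FFA2 fl/fl in blue and Adipoq-F2-KO in red and marker shapes for the library number. The 4 higher genes lie nearer to 1 per macrophage marker (Plek 0.56 on the log2 scale) than per adipocyte marker (Plek 1.36). The macrophage sum itself is higher in Adipoq-F2-KO (log2 ratio of means 0.54) and the adipocyte sum lower (-0.22), so the division alone brings this about.

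The closest relatives of these genes were next compared, since the choice of genes did not use them. Fam214b, the only other Atos gene, was at 53.8 ± 4.35 normalized CPM in controls and 56.1 ± 1.76 in knockouts (log2 fold change 0.06, SE 0.09, adjusted p = 0.773, edgeR). Per kilobase Fam214a was 3.10 times as abundant as Fam214b in controls and 1.36 times in knockouts. Dennd4b and Dennd4c, which share the Rab10 exchange activity of Dennd4a and of which Dennd4c is the one best known in adipocytes, had log2 fold changes of 0.15 (SE 0.14, adjusted p = 0.607) and 0.09 (SE 0.10, adjusted p = 0.711) in the edgeR fit. Per kilobase Dennd4a stood at 0.514 of the Dennd4c level in controls and at 0.885 of it in knockouts. Plek2, the pleckstrin relative, had at most 12 counts in a library and was not tested.

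Zswim6, a Zswim4 relative known from brain development, also rose. It was at 6.78, 10.8 and 11.1 normalized CPM in FFA2 fl/fl libraries 1 to 3 and at 18.97, 21.4, 21.9 and 36.4 in Adipoq-F2-KO libraries 1 to 4. The genotypes did not overlap, and library 4 stood far above the other knockouts. The log2 fold change was 1.36 (SE 0.24, adjusted p = 0.038 in the edgeR fit over all genes). Zswim5 was near the counting limit with at most 18 counts in a library.

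**Figure D4:**
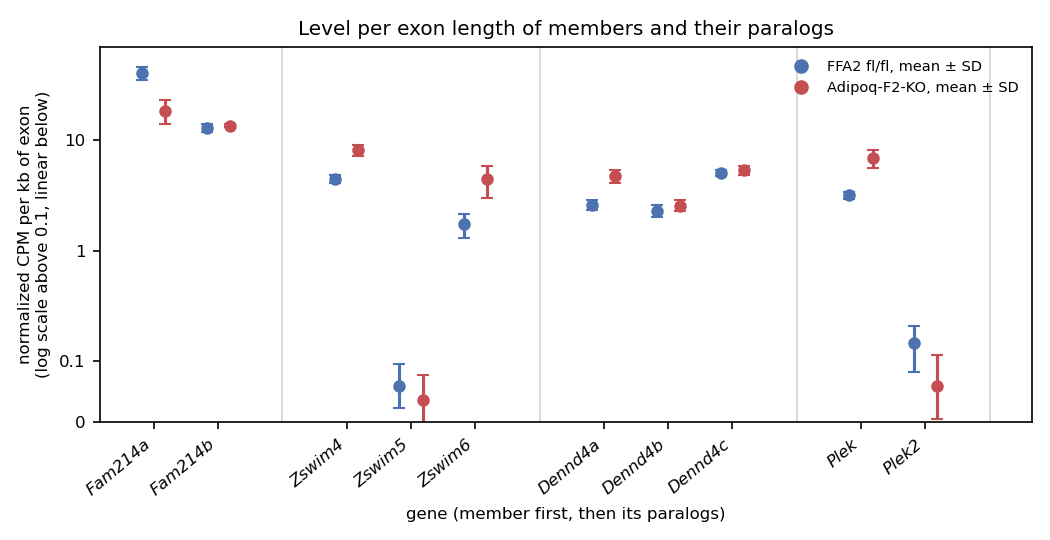
Normalized CPM per kilobase of exon (log scale above 0.1, linear below) of Fam214a, Zswim4, Dennd4a and Plek, each followed by its paralogs, as mean ± SD of 3 FFA2 fl/fl (blue) and 4 Adipoq-F2-KO (red) libraries. Zswim6 differs between genotypes along with Zswim4, whereas Fam214b, Dennd4b and Dennd4c have nearly the same mean in both, and Zswim5 and Plek2 lie near 0.

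Beyond paralogs, 6 lists of functional partners were read from the same fit, each chosen by known function but with earlier results of these data known. Over all tested genes the median log2 fold change was 0.00 and 1.02% passed the test. For Cys1, 50 genes of cilia, of myristoylated cargo transport and of cystic kidney disease were tested. Of these 22 were higher and 28 lower, 0 passed the test in either direction, and the median log2 fold change was -0.06. Nmt1, the N-myristoyltransferase, fell short of the threshold at 137 ± 4.85 against 111 ± 11.8 normalized CPM (log2 fold change -0.30, edgeR adjusted p = 0.149). Unc119, which carries myristoylated proteins, had a log2 fold change of -0.28 (adjusted p = 0.606) and the transport subunit Ift20 of 0.06 (adjusted p = 0.844) in the edgeR fit. For Fam214a, 4 genes were tested, Fam214b and 3 genes described downstream of Atossa, with 1 higher, 3 lower and 0 past the test (median -0.32). Among them Grhpr, a glyoxylate reductase, had a log2 fold change of -0.39 (adjusted p = 0.186) and the RNA helicase Ddx47 of -0.25 (adjusted p = 0.294).

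For Trp53i11, 43 genes of p53, its regulators and its targets were tested, 20 higher and 23 lower, with a median of -0.01. Of these 1 gene, Apaf1, passed the test. Apaf1, the scaffold of the apoptosome, was at 5.37, 9.25 and 8.03 normalized CPM in FFA2 fl/fl libraries 1 to 3 and at 14.8, 15.6, 13.8 and 19.4 in Adipoq-F2-KO libraries 1 to 4, a log2 fold change of 1.07 (SE 0.20, edgeR adjusted p = 0.039) with no overlap. The most abundant members of the list did not pass, with log2 fold changes of 0.05 for Trp53inp2 (adjusted p = 0.862), -0.08 for Btg2 (adjusted p = 0.805) and -0.66 for Phlda3 (adjusted p = 0.119). Trp53, Mdm2 and Cdkn1a, named here after their values were seen because they stand at the centre of the pathway, had log2 fold changes of 0.47 (adjusted p = 0.163), 0.41 (adjusted p = 0.058) and 0.70 (adjusted p = 0.065). Of other known genes of the pathway, also named after their values were seen, some shifted less and some more. In the edgeR fit Mdm4 had a log2 fold change of -0.02 (adjusted p = 0.959), Bax of 0.12 (adjusted p = 0.742) and Ccng1 of -0.19 (adjusted p = 0.433). More shifted were Gdf15 (log2 fold change 0.97, edgeR adjusted p = 0.114) and Pmaip1 (0.93, adjusted p = 0.222). Plk2 and Tnfrsf10b were both at 0.91 (edgeR adjusted p = 0.071 and 0.068). The genotypes did not overlap for 14 of the 43 genes, in both directions, against 17.6% of all tested genes.

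For Zswim4, 20 genes of the ZSWIM family and of cullin-RING ligases were tested, 8 higher and 12 lower, with Zswim6 alone past the test and a median of -0.02. The ligase subunits Elob, Nedd8 and Rnf7 had log2 fold changes of 0.01, -0.03 and 0.07, with edgeR adjusted p between 0.789 and 0.968. For Dennd4a, 34 DENN domain genes and Rab10 relatives were tested, 17 higher and 17 lower, with a median of 0.02. Rab8b, a small GTPase close to Rab10, rose from 19.2 ± 4.23 to 39.6 ± 8.69 normalized CPM (log2 fold change 1.04, SE 0.19, edgeR adjusted p = 0.038). Dennd2d, an exchange factor of the same domain family, fell from 45.1 ± 7.23 to 27.5 ± 2.59 (log2 fold change -0.71, SE 0.12, edgeR adjusted p = 0.038). Rab10 itself was at 122 ± 1.05 and 115 ± 4.78 (log2 fold change -0.08, adjusted p = 0.628), and the abundant Dennd5a and Rala had log2 fold changes of -0.00 and -0.21 without passing the test.

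For Plek, 28 genes of pleckstrin relatives, protein kinase C and phosphoinositide 3-kinase signaling were tested, 22 higher and 6 lower, with a median of 0.29. Over all tested genes 8596 of 17039 were higher. All 10 macrophage markers were higher too (median 0.63), and the part of other cell types in this list was not tested. Prkcd, the delta isoform of protein kinase C, rose from 24.7 ± 2.93 to 43.6 ± 5.16 normalized CPM (log2 fold change 0.82, SE 0.12, edgeR adjusted p = 0.033). Prkce, the epsilon isoform, fell from 94.4 ± 8.43 to 65.1 ± 5.39 (log2 fold change -0.54, SE 0.10, edgeR adjusted p = 0.039). Neither gene overlapped between genotypes. The abundant Akt1, Prkci and Inpp5a had log2 fold changes of 0.07, 0.03 and -0.05, with adjusted p between 0.742 and 0.911. The 6 partner genes that passed the test, Apaf1, Zswim6, Rab8b, Dennd2d, Prkcd and Prkce, all passed without Adipoq-F2-KO library 4. Without FFA2 fl/fl library 1, FFA2 fl/fl library 3 or Adipoq-F2-KO library 2, 0 of the 6 passed, with edgeR adjusted p between 0.172 and 0.207, between 0.121 and 0.164, and between 0.057 and 0.068 in turn. Without FFA2 fl/fl library 2 the count was 2 of 6 (adjusted p 0.041 to 0.064), 4 passed without Adipoq-F2-KO library 1 (adjusted p 0.019 to 0.057) and 1 without library 3 (adjusted p 0.040 to 0.072). Over all tested genes 166 passed without Adipoq-F2-KO library 4. In the other fits, in the order given, 1, 5, 11, 41, 178 and 20 passed.

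**Figure D5:**
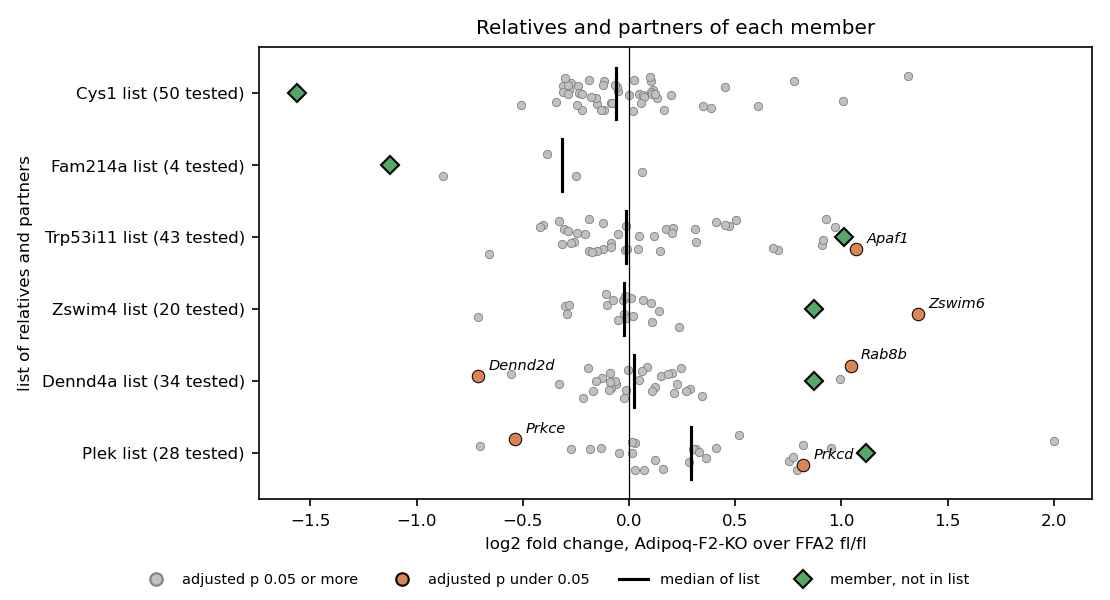
Log2 fold change (Adipoq-F2-KO over FFA2 fl/fl, horizontal axis) of every tested gene in the list of relatives and partners of each of the 6 genes (rows), with black bars for list medians, green diamonds for the selected gene and orange points for genes with an adjusted p under 0.05. Orange points are Apaf1 (1.07), Zswim6 (1.36), Rab8b (1.04), Dennd2d (-0.71), Prkcd (0.82) and Prkce (-0.54), and the list medians lie between -0.32 and 0.29.

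The genes beside the 6 loci were compared for the same reason. By the deposited coordinates 13 tested genes overlapped a locus or were the nearest on either side. Of these 9 were higher and 4 lower, and 0 passed edgeR's test. The genotypes did not overlap for 3 of the 13, against 17.6% of all tested genes. The lowest adjusted p was 0.171, for Slc24a1 near Dennd4a, which was low at 0.532 ± 0.333 and 1.74 ± 0.825 normalized CPM (log2 fold change 1.71). Prdm11 near Trp53i11 was also low, at 0.867 ± 0.470 and 1.99 ± 0.532 (log2 fold change 1.19, adjusted p = 0.199). Tspan18, a tetraspanin gene on the opposite strand, lies tail to tail with Trp53i11, the last bases of both genes being adjacent. Its level was 42.3 ± 4.16 and 44.99 ± 3.96 normalized CPM (log2 fold change 0.09, adjusted p = 0.711). Klf11, a Krüppel-like factor gene 3043 bases from Cys1, had a log2 fold change of 0.05 (adjusted p = 0.879), and Arpp19, 5145 bases from Fam214a and coding for a phosphatase inhibitor, of -0.14 (adjusted p = 0.425). Plek shares 796 bases with Cnrip1 on the opposite strand, and Cnrip1 was low at 2.52 ± 0.665 and 3.26 ± 1.08 (log2 fold change 0.37, adjusted p = 0.578). The strand setting used for counting is not stated, so reads in that stretch cannot be assigned with certainty.

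The genes whose profiles over the 7 libraries lay nearest to each of the 6 were found by the root mean square (RMS) difference of log2 CPM after centring each gene on its own mean, among 13507 genes. This measure contains the genotype difference that chose the 6 genes and is given as a description. Fam214a and Cys1 were close to each other (RMS 0.28, with 1 gene nearer to Cys1), and both lay near Fam13a, a gene of a human fat distribution locus, at 0.28 from Cys1 and 0.20 from Fam214a. The third gene of the Cys1 list was the predicted gene Gm2619 (0.33). Myrip, a myosin and Rab27 linker, was the nearest to Fam214a (0.19), followed by Gm45091 (0.20). For Trp53i11 the nearest genes were Kazn (RMS 0.059), a desmosome-associated protein gene, the G protein subunit gene Gng11 (0.083) and the small GTPase gene Rap2b (0.10). Dennd4a lay nearest to Rap2b (0.077), Ezh2 (0.087) and Kazn (0.094), and 4 genes were nearer than Dennd4a to Trp53i11 (RMS 0.11). For Zswim4 they were Ezh2 (RMS 0.12), the histone methyltransferase gene, the heme-responsive repressor gene Bach1 (0.12) and Tnfaip8l1 (0.13). Plek had another set, Clec12a (RMS 0.065), a lectin receptor of myeloid cells, the hematopoietic transcription factor gene Runx1 (0.076) and Ccl2 (0.12), the monocyte chemokine. Clec12a was higher in Adipoq-F2-KO libraries 3 and 4 (6.53 and 6.65 normalized CPM) than in libraries 1 and 2 (4.31 and 4.80). It lay between 2.51 and 3.07 in the controls. This likeness to Plek is what the search over the same libraries selected for, so nothing further is read from it. The median RMS distance of all genes from the 6 lay between 0.51 and 0.83.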

How the data were processed

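RNA-Seq covered mature adipocytes of 7 mice (3 floxed controls, 4 knockouts), and groups were taken from the sample labels. The submitters' processing notes name Trimmomatic, STAR, featureCounts, DESeq2 and GRCm38 (mm10), with versions and counting options not given in the sources used here. The deposited values are whole-number read counts per gene, without normalization. Of 52029 gene identifiers shared with a GRCm38 annotation, which gave the gene symbols, 1409 had identical coordinates, so gene positions are those of the deposited table, whose build is uncertain, and promoter positions are RefSeq's on GRCm38.p6.

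Between 85.5% and 88.8% of counts up to 49 were even, so both mates of a pair appear to have been counted. A count of 0 then allows up to 0.150 to 0.197 CPM (3 fragments, 6 counts; counting error only). No pair of libraries of a genotype agreed within sampling noise.

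From the counts, genes were filtered with filterByExpr, scaled by TMM (factors 0.968 to 1.02) and fitted on genotype alone in edgeR 4.0.16 (glmQLFit, glmQLFTest, two-sided; R 4.3.3) with Benjamini-Hochberg adjustment over the 17039 tested genes. Each SE was derived as log2 fold change over root F. Normalized CPM is CPM on TMM-scaled totals. The scripts were tested on simulated data. Promoter windows covered 8 transcript starts of the 6 genes. P-values set the genotype difference against the spread between mice of one cohort.

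Alternatives were DESeq2 1.42.0, voom of limma 3.58.1, other size factors, no TMM, a filter of at least 1 count, a replicate block and leaving out each library. The 6 genes and all lists were chosen with earlier results of these data known. Other genes are named if they are paralogs, the nearest or overlapping genes, the 3 nearest profiles, partner genes that passed the test or are among the 3 most abundant of a list, or the most abundant marker of a list. Trp53, Mdm2, Cdkn1a, Mdm4, Bax, Ccng1, Gdf15, Pmaip1, Plk2 and Tnfrsf10b of the p53 list are named outside these rules, after their values were seen. Marker lists covered adipocytes, macrophages, neutrophils, T cells, B cells, platelets, endothelial cells, fibroblast progenitors, mesothelium and germ cells.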

Additional observations from a re-analysis of the deposited data

Results flagged for a closer look

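In 6 of 71 named genes, 1 Adipoq-F2-KO library of the 4 stood farther from the rest than Dixon's 95% limit allows, which chance does for about 1 in 20 groups, and the control group of 3 was not checked. Fam214a was at 77.9 normalized CPM in library 4 against 133 to 141 in the other knockout libraries. Zswim6 was at 36.4 in library 4 against 18.97 to 21.9. Rap2b, a near profile of Trp53i11 and Dennd4a, was at 20.1 in library 4 against 13.3 to 13.9. Fam214b was at 58.7 in library 1 against 55.03 to 55.4, a small distance in a group with little scatter. Gm2619, a near profile of Cys1, was at 3.62 in library 3 against 2.58 to 2.73. Prm2, the sperm protamine gene used as a germ cell marker, was at 54.1 in library 2 against 0.702 to 5.31. Fam214a, Zswim6 and Rap2b involved the same library.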

How the results depend on the processing

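The log2 fold changes of Cys1, Fam214a, Trp53i11, Zswim4, Dennd4a and Plek kept their direction in all 13 alternative fits. Genes chosen for lack of overlap could hardly change direction, so nothing is read from this. The number of calls depended strongly on the fit. With a filter of at least 1 count, 1071 of 28515 tested genes were called higher and 332 lower, and DESeq2 called 670 and 220 of 14342. Partner genes called with that filter were 1 in the Cys1 list, 1 in the Fam214a list, 10 in the p53 list and 5 in the Plek list, and DESeq2 called 8 in the p53 list and 5 in the Plek list. Leaving out 1 library gave 0 to 151 genes higher, 1 to 30 lower, 0 to 2 in the p53 list, 0 to 1 in the Zswim4 list, 0 to 2 in the Dennd4a list and 0 to 2 in the Plek list, with fewer samples in each fit. The replicate numbers are not said to pair mice, and same-numbered libraries did not deviate together (correlations 0.03, -0.02 and -0.02, with library 1 of the controls alone matching its own number best). With the number as a replicate block, 224 genes were called, with 1 in the Cys1 list and 2 in the p53 list. The cause of the other shifts was not tested. With 3 and 4 mice, depth limited low genes such as Plek2 and Zswim5.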

Other observations

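Other marker lists varied between single libraries. Germ cell markers summed to 139 normalized CPM in Adipoq-F2-KO library 2 and to at most 14.0 in the other libraries, and their log2 ratio between genotypes was 4.16 with that library and 1.69 without it. B cell markers summed to 23.2 in FFA2 fl/fl library 2 and to 0.908 and 0.937 in the other control libraries, against 1.43 to 12.1 in knockouts, and their log2 ratio turned from -0.57 to 2.61 without that library. T cell markers summed to at most 4.26 in any library (log2 ratio -0.86, and -0.03 without FFA2 fl/fl library 2). Mesothelial markers summed to 56.3 in FFA2 fl/fl library 1 and to between 10.3 and 19.8 in the other libraries (log2 ratio -1.22, and -0.29 without it). Fibroblast progenitor markers summed to 763 to 1047 in controls and 1103 to 1282 in knockouts, with 5 of 6 higher and 0 past the edgeR test.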
